A study of Homo sapiens with 6 samples.

Results

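The genes described here are 40 human genes of glycolysis, the pentose phosphate pathway and the response to low oxygen, taken by gene symbol from a table of 60624 Ensembl genes. All 40 were found in the table and all 40 passed the filter on low values (a mean of at least 1 TPM), among 14778 tested genes. They fall into 24 genes of glycolysis (4 transporters, 17 enzymes and 3 regulators), 3 genes of the pentose phosphate pathway and 13 genes of the HIF pathway and of hypoxia. They lie on 19 chromosomes, with 6 on chromosome 12 and 6 on chromosome 10. The rule that chose them used no measured value, although the members were chosen with earlier results of these data known.

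A549 cells, a line from a human adenocarcinoma of the lung, were transfected with siRNA against CEP20, which encodes a centrosomal protein (siCEP20, 3 samples), or with a control siRNA (siCTR, 3 samples), and were harvested after 3 days. The sources differ in detail: RNA came from a column kit after growth in F-12K and a plasmid transfection by the labels, and from TRIzol after DMEM and Lipofectamine RNAiMAX by the methods. The methods list 2 siRNAs against CEP20 and do not state which one was sequenced, and samples with restored CEP20 were not analysed here. No label names a hypoxia treatment in either group. CEP20 was at 29.2, 30.5 and 35.1 TPM in the siCTR samples and at 16.2, 15.3 and 17.3 TPM in the siCEP20 samples, so that 51.4% of its control level was left.

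Glycolysis splits glucose into pyruvate in the cytosol and yields ATP and NADH. Lactate dehydrogenase then turns pyruvate into lactate, which monocarboxylate transporters carry out of the cell. The pentose phosphate pathway branches off after the first step and supplies NADPH and ribose. HIF, a transcription factor of an oxygen-labile alpha subunit and a stable beta subunit, binds a short core sequence near its targets, which include most glycolytic genes, carbonic anhydrases and VEGFA, and lung carcinoma cells commonly express many of these genes at ordinary oxygen.

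Levels are given in TPM, a unit that accounts for transcript length and for the size of the library, so that different genes can be compared within 1 library. The table holds no read counts, and sequencing depth is therefore unknown. Fold changes are differences of mean log2(TPM + 1), siCEP20 against siCTR, from limma, and adjusted p-values are Benjamini-Hochberg values over all tested genes. Below, a gene rose or fell where its adjusted p was under 0.05, and it was called where its fold change also passed 1.5 or 0.67, the study's thresholds. The labels do not say whether samples of a group came from separate cultures, so p-values measure the spread between these samples, which may be technical. Over all tested genes the median log2 fold change was 0.13, and scaling by the median of ratios, which divides each library by 1 factor (0.904 to 1.08 over the 6 libraries), moved it to 9.4e-05. Directions near 0 therefore depend on the scale, and changes are also given relative to that median or with this scaling.

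The A549 label was checked against 8 epithelial lung carcinoma markers. Of these, 7 were above 1 TPM in every library and EPCAM ranged from 0.834 to 3.85 TPM. The summed level of the 8 was 8313 to 8590 TPM in siCTR and 9542 to 9814 TPM in siCEP20 libraries. They also moved with the groups, in both directions. EPCAM, CDH1, KRT7, KRT8, KRT18 and KRT19 rose, EPCAM and CDH1 with log2 fold changes of 1.10 and 0.92. AKR1B10 (-0.18) and AKR1C1 (-0.33) fell. Of 10 markers of other cell types, 7 had a mean under 1 TPM, including the immune marker PTPRC and the endothelial markers PECAM1 and VWF, and CD3E and DCN were at 0 in every library. CD14, also an immune marker, was at 7.20 to 10.9 TPM, and its groups overlapped. The summed level of the 10 was 33.9 to 41.8 TPM in siCTR and 91.8 to 98.0 TPM in siCEP20 libraries. That difference lay in the mesenchymal genes ACTA2 (22.8 ± 1.77 and 67.2 ± 3.39 TPM, SD, n = 3 each) and COL1A1 (5.52 ± 0.333 and 18.9 ± 1.15 TPM), which moved with the groups like the changes below, and their part in those was not tested. In such bulk RNA, fewer cells of a type and less RNA per cell cannot be told apart.

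Of the 40 genes, 16 rose, 9 (22.5%) fell and 15 did neither. Among all tested genes, 30.2% rose and 13.2% fell. With the fold change thresholds, 5 of the 40 were called higher (NDRG1, CA9, VEGFA, CA12 and PFKFB4), where 11.2% of all tested genes were, and 1 was called lower (LDHB), where 4.61% were. The number of called genes among the 40 was thus close to that background in both directions. The 3 siCEP20 values lay above the 3 siCTR values for 17 of the 40 genes (38.4% of all tested genes) and below them for 11 (17.0%). Over the 24 glycolysis genes, 8 rose, 8 fell and 8 did neither, with a median log2 fold change of -0.13, and with median-of-ratios scaling 4 rose and 12 fell, where 20.1% of all tested genes rose and 21.6% fell. With quantile normalization 7 rose and 7 fell (21.4% and 19.9% of all tested genes), with a median of -0.013. Of the 9 genes that fell, 8 were glycolytic enzymes and 1 was TALDO1 of the pentose phosphate pathway, and none of the 13 HIF and hypoxia genes fell with the values as deposited.

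**Figure D1:**
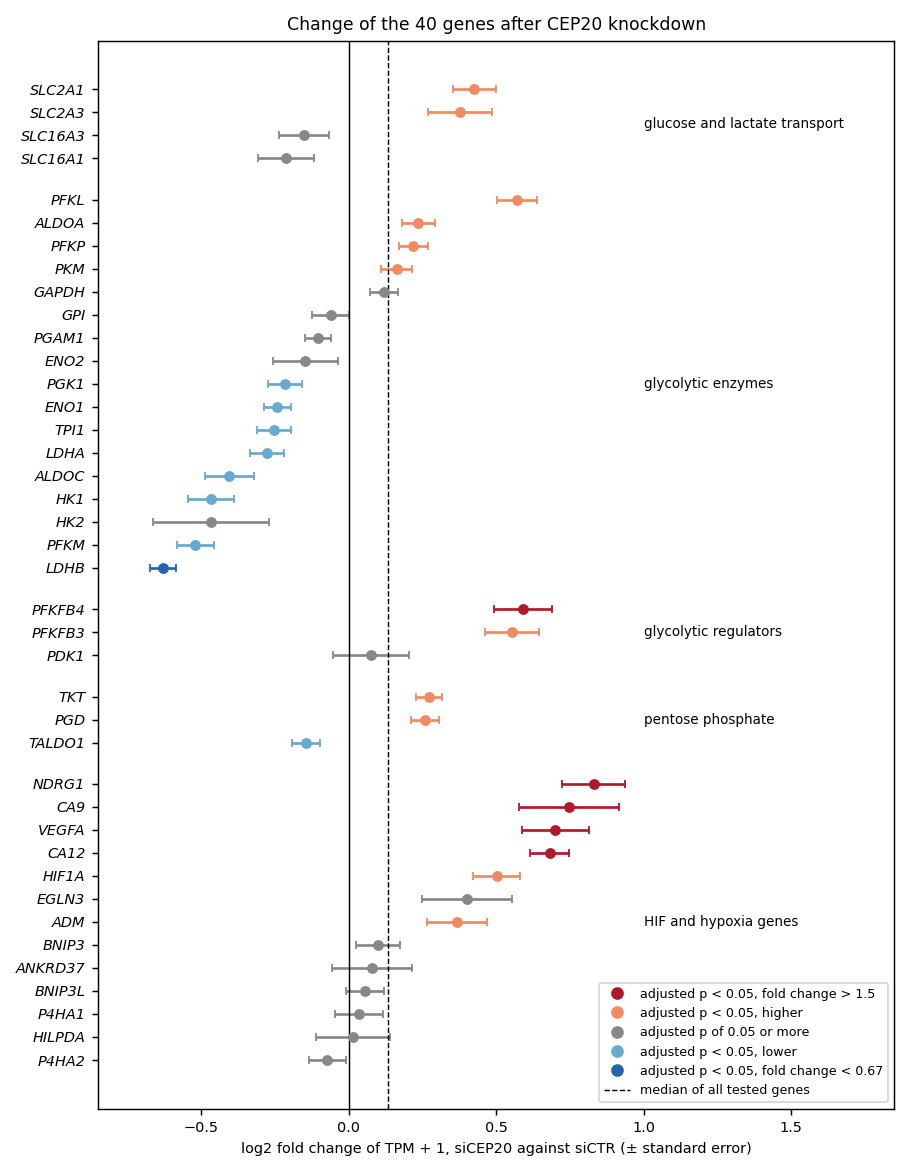
Log2 fold change of TPM + 1 (x axis, siCEP20 against siCTR) of the 40 genes, grouped by role, with standard errors and 3 libraries a group; colors give the test and the dashed line the median of all tested genes (0.13). The 5 genes called higher and LDHB, called lower, stand at the edges, and most glycolytic enzymes lie left of the dashed line.

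The 40 genes together made up 3.09%, 3.22% and 3.19% of all TPM in siCTR and 3.16%, 3.32% and 3.36% in siCEP20 libraries, so that both groups overlapped. Glycolysis took 2.62% to 2.72% of all TPM in siCTR and 2.57% to 2.75% in siCEP20 libraries. The 13 HIF and hypoxia genes took 0.121%, 0.135% and 0.132% in siCTR libraries and 0.181%, 0.184% and 0.182% in siCEP20 libraries, with a gap between groups. The 3 pentose phosphate genes took 0.353%, 0.361% and 0.370% against 0.407%, 0.429% and 0.423%, also without overlap. Taken singly, 7 of the 13 HIF and hypoxia genes overlapped between groups. The largest differences of mean TPM among the 13, siCTR and siCEP20, were those of CA12 (256 and 410), HIF1A (325 and 458), NDRG1 (160 and 285) and VEGFA (122 and 201).

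Promoters of 6 genes that the results turn on are shown here, 4 that rose (CA9, CA12, PFKFB4 and PFKL) and both lactate dehydrogenase genes, which fell. Each is a RefSeq window (GRCh38.p14) from 250 bases before to 50 bases after the gene's start, printed 5′ to 3′ on the gene's strand. Capitals mark matches to the HIF core sequence in its forms ACGTG and GCGTG on either strand, so that a match on the other strand reads CACGT or CACGC. The palindrome CACGTG holds the first form on both strands and counts as 2 matches.
CA9, chr9:35673678-35673977, plus strand: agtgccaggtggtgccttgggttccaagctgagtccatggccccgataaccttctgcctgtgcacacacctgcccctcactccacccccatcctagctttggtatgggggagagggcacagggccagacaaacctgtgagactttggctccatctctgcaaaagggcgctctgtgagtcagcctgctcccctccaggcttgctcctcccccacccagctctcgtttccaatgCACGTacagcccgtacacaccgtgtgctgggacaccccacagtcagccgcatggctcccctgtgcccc
CA12, chr15:63381797-63382096, minus strand: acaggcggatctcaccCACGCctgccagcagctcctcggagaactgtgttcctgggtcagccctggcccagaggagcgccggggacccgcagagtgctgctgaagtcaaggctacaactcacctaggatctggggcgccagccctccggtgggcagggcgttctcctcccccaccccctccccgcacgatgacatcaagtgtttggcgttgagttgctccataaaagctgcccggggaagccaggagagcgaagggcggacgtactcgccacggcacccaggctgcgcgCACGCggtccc
PFKFB4, chr3:48556754-48557053, minus strand: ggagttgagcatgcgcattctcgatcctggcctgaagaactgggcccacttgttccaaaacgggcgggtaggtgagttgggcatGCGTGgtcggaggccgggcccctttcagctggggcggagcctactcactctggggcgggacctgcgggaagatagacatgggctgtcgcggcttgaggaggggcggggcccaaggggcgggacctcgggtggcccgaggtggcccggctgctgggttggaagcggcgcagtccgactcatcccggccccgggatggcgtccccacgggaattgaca
PFKL, chr21:44299803-44300102, plus strand: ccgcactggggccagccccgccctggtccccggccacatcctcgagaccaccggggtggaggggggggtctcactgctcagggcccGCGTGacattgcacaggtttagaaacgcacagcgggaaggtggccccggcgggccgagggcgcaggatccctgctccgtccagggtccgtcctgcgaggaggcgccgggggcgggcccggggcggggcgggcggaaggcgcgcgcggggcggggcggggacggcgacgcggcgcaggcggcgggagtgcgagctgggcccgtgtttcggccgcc
LDHA, chr11:18394313-18394612, plus strand: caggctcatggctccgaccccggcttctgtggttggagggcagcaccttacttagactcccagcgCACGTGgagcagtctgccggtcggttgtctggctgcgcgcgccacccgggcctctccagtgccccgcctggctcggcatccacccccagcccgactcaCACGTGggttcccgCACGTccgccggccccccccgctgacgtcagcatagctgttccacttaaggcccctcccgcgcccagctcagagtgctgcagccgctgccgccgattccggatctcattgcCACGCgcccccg
LDHB, chr12:21657793-21658092, minus strand: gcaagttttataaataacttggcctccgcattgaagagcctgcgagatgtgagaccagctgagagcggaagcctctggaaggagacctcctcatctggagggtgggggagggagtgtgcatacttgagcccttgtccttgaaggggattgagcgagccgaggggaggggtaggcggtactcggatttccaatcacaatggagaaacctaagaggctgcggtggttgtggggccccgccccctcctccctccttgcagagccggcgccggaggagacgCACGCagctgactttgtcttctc

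LDHA held 5 matches to ACGTG, 4 of them in 2 palindromes, and 1 to GCGTG, and CA9 held 1 to ACGTG, 18 bases before its start. CA12 held 2 matches to GCGTG, and PFKFB4, PFKL and LDHB held 1 each, none of them to ACGTG. Windows were given for 34 of the 40 genes, without BNIP3L, HILPDA, SLC16A1 and the genes SLC2A3, NDRG1 and VEGFA, which rose. Some windows lay away from the start of the main annotated transcript, by the bases given: PFKM (3283), PGAM1 (1627), P4HA2 (762), GAPDH (747), PFKP (422), HK1 (217) and GPI (204). PFKM, PGAM1, P4HA2 and PFKP held neither form in these windows. Of the 34 genes, 16 (47.1%) held ACGTG and 16 (47.1%) GCGTG, where 27.3% and 52.9% of the windows of 10508 tested genes and 23.3% and 42.6% of all 19065 windows did. The median GC content of the windows was 70.5% for the 34 genes and 66.3% for tested genes. ACGTG stood in 4 of 13 genes that rose, 3 of 9 that fell and 9 of 12 that did neither. GCGTG went the other way, in 8 of 13, 6 of 9 and 2 of 12. The share with ACGTG was thus highest, and that with GCGTG lowest, in the genes that did neither. Either form stood in 11 of 13 genes that rose (84.6%), 6 of 9 that fell (66.7%) and 9 of 12 that did neither (75%). Among the windows of tested genes, 65.2% held either form. A match describes these letters only and is not a measured binding site.

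Both glucose transporters rose. SLC2A1, which encodes the widely expressed glucose transporter GLUT1 (chromosome 1 of hg38 from 42925353 to 42958893, minus strand), was at 123, 147 and 129 TPM in siCTR libraries and at 173, 183 and 179 TPM in siCEP20 libraries. Every siCEP20 value lay above every siCTR value. The change was 0.43 on the log2 scale (standard error, SE, 0.073, adjusted p = 0.00233 from limma), or 0.29 relative to all tested genes, and with median-of-ratios scaling SLC2A1 still rose (0.27). SLC2A3, encoding the high-affinity transporter GLUT3, was lower in level, at 16.4, 22.2 and 18.9 TPM against 24.4, 26.1 and 24.6 TPM. Its groups were also apart, with a log2 fold change of 0.38 (adjusted p = 0.0227, limma). The adjusted p of SLC2A3 was 0.0754 with median-of-ratios scaling, and it exceeded 0.05 without siCTR 1, siCTR 3, siCEP20 1 or siCEP20 2, up to 0.0731 (log2 fold change 0.35) without siCEP20 2.

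The lactate transporters did not rise. SLC16A1, which encodes MCT1, a transporter that carries lactate in both directions, was at 41.0, 44 and 50.5 TPM in siCTR and 35.7, 39.3 and 41.2 TPM in siCEP20 libraries, and the groups overlapped. Its log2 fold change of -0.21 had an adjusted p of 0.099 (limma). SLC16A3, which encodes MCT4, the exporter of highly glycolytic cells and the more abundant of both, was at 140.4, 169 and 163 TPM against 131, 151 and 141 TPM, also with overlap (log2 fold change -0.15, adjusted p = 0.178, limma). With median-of-ratios scaling both fell, with log2 fold changes of -0.36 and -0.30. SLC16A3 overlaps CSNK1D on the opposite strand, whose level was 120% of its own, and whether strand was used in quantification is not given in the sources used here.

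Of the 17 glycolytic enzymes, 8 fell (HK1, PFKM, ALDOC, TPI1, PGK1, ENO1, LDHA and LDHB), 4 rose (PFKL, PFKP, ALDOA and PKM) and 5 did neither. Their median log2 fold change was -0.22, against 0.13 for all tested genes. With median-of-ratios scaling, 10 fell and 1, PFKL, rose, and with transcript length and GC content corrected for, 11 fell and 2 rose. Among all tested genes 21.6% fell and 20.1% rose with the first, and 21.3% fell and 19.9% rose with the second. With quantile normalization 6 fell and 4 rose, and the changes of the most abundant enzymes, such as ALDOA, PKM and GAPDH, were larger, while ENO1 and LDHA turned to 0.04 and 0.02. All 8 that fell as deposited also fell with median-of-ratios scaling and with the length and GC correction.

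At the first step, hexokinase phosphorylates glucose. HK1, the main hexokinase of most tissues, was at 52.9, 58.1 and 53.4 TPM in siCTR and 36.1, 39.9 and 42.3 TPM in siCEP20 libraries. All siCEP20 values were below all siCTR values, and the log2 fold change was -0.47 (adjusted p = 0.00215, limma). HK1 was called lower with median-of-ratios scaling (-0.61) and with the length and GC correction (-0.63). HK2, the insulin- and hypoxia-responsive form, was close to the filter, at 1.35, 2.03 and 1.10 TPM against 0.734, 0.761 and 0.850 TPM. HK2 values did not overlap, but its change of -0.47 had an adjusted p of 0.087 (limma), and this scale understates changes at such levels. HK2 was called lower with quantile normalization (-0.59, adjusted p = 0.0367) and with the length and GC correction (-0.68, adjusted p = 0.0228, both limma). With median-of-ratios scaling its adjusted p was 0.0544. A large part of the family was HKDC1, a gene outside the 40 that encodes a further hexokinase, at 43.2, 50.8 and 43.8 TPM against 42.6, 43.0 and 46.5 TPM, with overlap. The summed hexokinase TPM was 97.5, 110.9 and 98.3 in siCTR and 79.5, 83.6 and 89.7 in siCEP20 libraries. HK1 made up 53.7% ± 1.10 of that sum in siCTR and 46.8% ± 1.17 in siCEP20 libraries, and HKDC1 44.9% ± 0.777 and 52.3% ± 1.17 (SD, n = 3 each), so that HKDC1 exceeded HK1 in every siCEP20 library and in no siCTR library.

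GPI, which turns glucose phosphate into fructose phosphate, overlapped between groups, at 454, 517 and 509 TPM against 455, 482 and 481 TPM (log2 fold change -0.06, adjusted p = 0.461, limma). It fell with median-of-ratios scaling, by 0.21 on the log2 scale. The next step, the committed one, is catalysed by phosphofructokinase, and its 3 isoenzymes, which form mixed tetramers, differed in direction.

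PFKL, the liver-type subunit (chromosome 21 of hg38 from 44300051 to 44327376, plus strand), was at 36.1, 39.5 and 39.3 TPM in siCTR libraries and at 58.5, 58.8 and 54.8 TPM in siCEP20 libraries. PFKM, the muscle-type subunit (chromosome 12 of hg38 from 48105139 to 48146404, plus strand), was at 52.0, 54.3 and 55.3 TPM against 36.7, 36.4 and 38.7 TPM. Both were separate between groups in opposite directions, so that PFKM was the higher in every siCTR library and PFKL in every siCEP20 library. PFKL rose with a log2 fold change of 0.57 (SE 0.067, adjusted p = 0.000418) and PFKM fell with -0.52 (SE 0.063, adjusted p = 0.000469, both from limma). Each kept its direction under every scaling, with 0.42 and -0.67 by the median of ratios. Neither passed the fold change thresholds as deposited, but PFKM did with median-of-ratios scaling, quantile normalization and the length and GC correction, and PFKL did without siCTR 2, siCTR 3 or siCEP20 3, by up to 0.60 without siCEP20 3.

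PFKP, the platelet-type subunit, was by far the most abundant, at 603, 635 and 613 TPM against 690.4, 726 and 738 TPM. It rose by a log2 fold change of 0.22 (adjusted p = 0.00744, limma), or 0.09 relative to all tested genes, and with median-of-ratios scaling its adjusted p was 0.275. PFKL made up 5.23%, 5.42% and 5.56% of phosphofructokinase TPM in siCTR libraries and 7.44%, 7.16% and 6.60% in siCEP20 libraries. PFKM made up 7.53%, 7.45% and 7.81%, then 4.67%, 4.43% and 4.66%. A share within a library does not depend on the scale between libraries. The order of both minor subunits was reversed, while PFKP took 87.0% ± 0.326 in siCTR and 88.4% ± 0.432 in siCEP20 libraries (SD, n = 3 each).

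**Figure D2:**
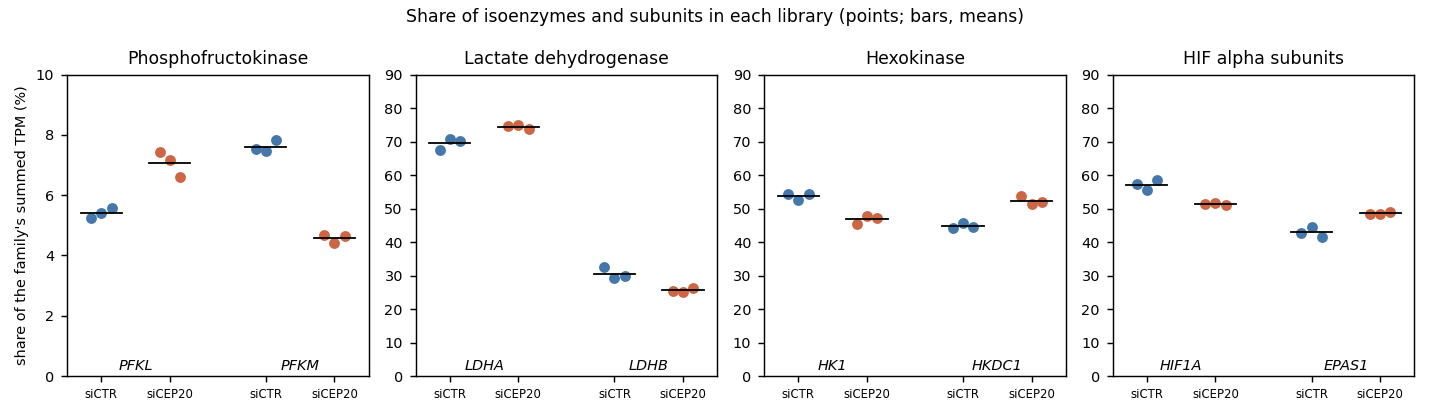
Share of the family's summed TPM (y axis, %) taken by 2 isoenzymes or subunits of 4 families in each library (points; bars are means of 3 libraries); blue is siCTR and orange siCEP20. PFKL passed PFKM and HKDC1 passed HK1 in siCEP20 libraries, LDHA took 74.4% of lactate dehydrogenase against 69.4%, and HIF1A and EPAS1 came close to equal shares.

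Aldolase, which splits the hexose, moved in 2 directions. ALDOA, the main isoenzyme, was at 1723, 1917 and 1863 TPM against 2064, 2167 and 2246 TPM and rose by 0.24 on the log2 scale (adjusted p = 0.0105, limma). ALDOC, a form best known from brain, was at 27.6, 31.0 and 33.4 TPM against 22.2, 23.2 and 23.2 TPM and fell (-0.40, adjusted p = 0.0058, limma). Neither gene overlapped between groups, and with median-of-ratios scaling ALDOC still fell while the adjusted p of ALDOA was 0.194. The log2 ratio of ALDOC to ALDOA was 0.64 lower in siCEP20 libraries (-5.86 ± 0.0854 in siCTR and -6.50 ± 0.0324 in siCEP20, SD, n = 3 each), with no overlap. Its two-sided exact permutation p was 0.1, the smallest that 3 against 3 allow, and 0.5 after adjustment over the 10 ratios computed.

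After aldolase, TPI1, PGK1 and ENO1 fell by small amounts. TPI1, which interconverts the triose phosphates, was at 1411, 1561 and 1602 TPM against 1238, 1321 and 1275 TPM (log2 fold change -0.25, adjusted p = 0.00932, limma). PGK1, the first step that makes ATP, was at 341, 369.7 and 329 TPM against 288, 302 and 303 TPM (-0.22, adjusted p = 0.0173). ENO1, the main enolase, was at 2907, 3044 and 2910.4 TPM against 2501, 2578 and 2414 TPM (-0.24, adjusted p = 0.00353). In all 3 the siCEP20 values lay below the siCTR values, but quantile normalization brought TPI1 to -0.01 and turned ENO1 to 0.04. PGK1 missed an adjusted p of 0.05 without siCTR 2 (log2 fold change -0.17, adjusted p = 0.0617) and without siCEP20 1. PGAM1, which moves the phosphate of phosphoglycerate, was also below in each siCEP20 library, at 512, 517 and 500.3 TPM against 469, 482 and 473 TPM, with an adjusted p of 0.0902 (log2 fold change -0.10). ENO2, the enolase of neurons, overlapped between groups (71.2 ± 12 and 63.6 ± 3.01 TPM, SD, n = 3 each, adjusted p = 0.312 from limma).

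GAPDH, the enzyme that makes the first NADH and a common reference gene, was the most abundant of the 40, at 8635, 8600.3 and 8575 TPM in siCTR and 8900.3, 9279 and 9897 TPM in siCEP20 libraries. All 3 siCEP20 values were above the siCTR values, but the log2 fold change of 0.12 (adjusted p = 0.0772, limma) was -0.01 relative to all tested genes and became -0.03 with median-of-ratios scaling. PKM, pyruvate kinase, was at 4648, 4709 and 4795 TPM against 4948, 5348 and 5551 TPM. It rose by 0.16 (adjusted p = 0.0342, limma), but the change was 0.03 relative to all tested genes. The adjusted p of PKM exceeded 0.05 without any of 5 of the libraries (all but siCEP20 1), up to 0.104 (log2 fold change 0.13) without siCEP20 3.

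Lactate dehydrogenase fell in both of its subunits as deposited, and LDHA turned with quantile normalization. LDHB, which encodes the heart-type subunit (chromosome 12 of hg38 from 21635342 to 21757857, minus strand), was at 1376, 1323 and 1338 TPM in siCTR libraries and at 851, 883 and 875 TPM in siCEP20 libraries. It was the only one of the 40 called lower, with groups far apart, 64.6% of its control level and a log2 fold change of -0.63 (SE 0.043, adjusted p = 5.17e-05 from limma). LDHA, the muscle-type subunit and a classical HIF target (chromosome 11 of hg38 from 18394560 to 18408425, plus strand), was at 2839, 3191 and 3159 TPM against 2498, 2627 and 2446 TPM, again without overlap. LDHA fell by a smaller amount, with a log2 fold change of -0.28 (SE 0.058, adjusted p = 0.00577). Relative to all tested genes LDHB stood at -0.76 and LDHA at -0.41. Quantile normalization took LDHB to -0.45, which ended its call, and turned LDHA to 0.02.

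The summed lactate dehydrogenase TPM was 4216, 4514 and 4497 in siCTR libraries and 3349, 3510.3 and 3321 in siCEP20 libraries, a ratio of means of 0.77. LDHA made up 67.3%, 70.7% and 70.2% of this sum in siCTR libraries and 74.6%, 74.8% and 73.7% in siCEP20 libraries. The log2 ratio of LDHA to LDHB was 0.35 higher in siCEP20 libraries, from 1.18 ± 0.122 to 1.54 ± 0.0475 (SD, n = 3 each), and the groups did not overlap. As for aldolase, p was 0.1 in the exact permutation test (two-sided) and 0.5 after adjustment. Of the other 8 ratios between related genes, 7 overlapped between groups, with differences of the log2 ratio from -0.11 (P4HA2 to P4HA1) to 0.09 (ENO2 to ENO1), and 3 against 3 libraries cannot show that they are alike. The remaining ratio, HK2 to HK1, depended on the pseudocount, since HK2 was near 1 TPM. Its TPM ratio was 0.0255, 0.0349 and 0.0206 in siCTR and 0.0203, 0.0191 and 0.0201 in siCEP20 libraries, without overlap. On the log2 scale the groups overlapped with a pseudocount of 1 (difference -0.0011), and the difference was -0.34 with a pseudocount of 0.1 (adjusted exact permutation p = 0.5).

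**Figure D3:**
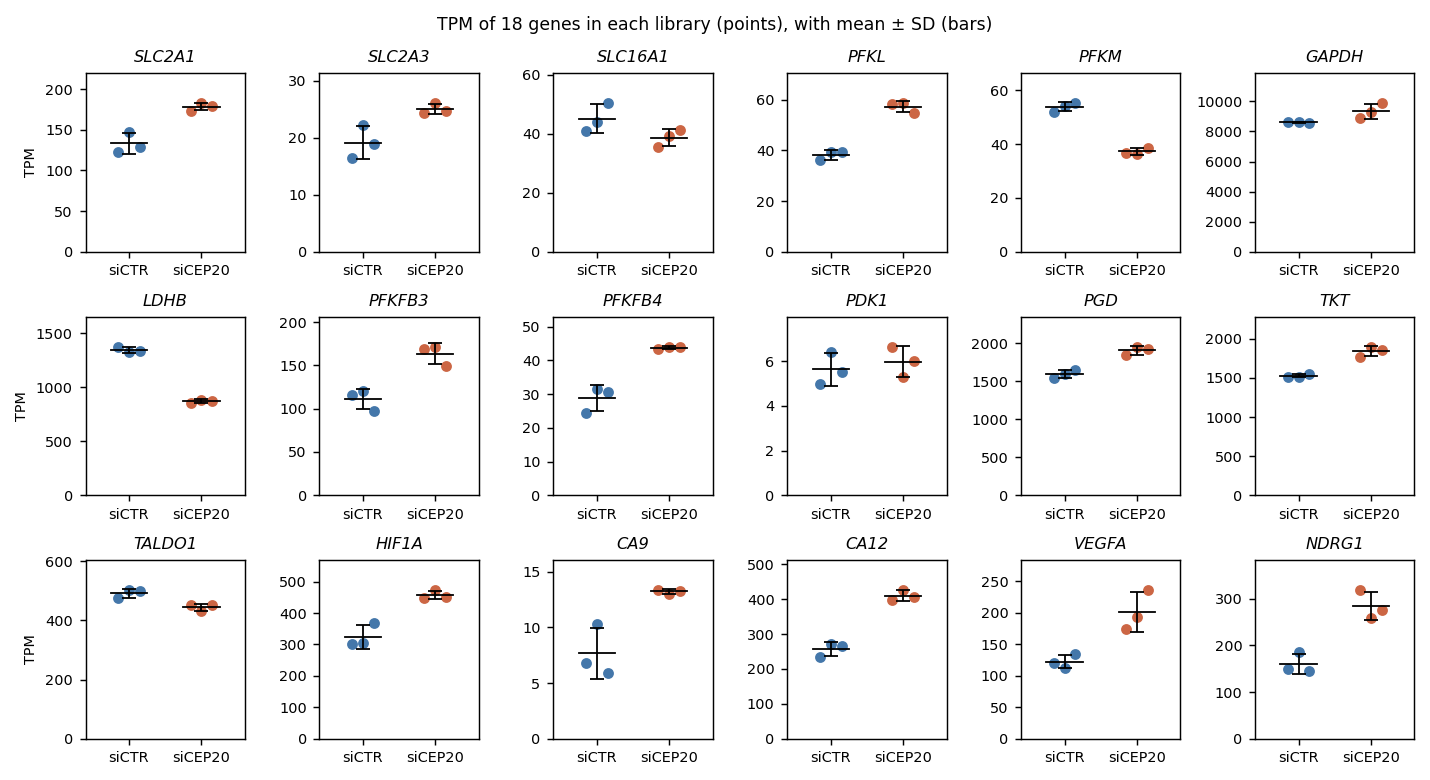
TPM (y axis, linear and from 0) of 18 of the 40 genes in each library, 3 siCTR (blue) and 3 siCEP20 (orange), with mean ± SD as bars. LDHB and PFKM lie lower and PFKL, PFKFB4, CA12 and NDRG1 higher in every siCEP20 library, while PDK1 and SLC16A1 overlap.

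Of the 3 regulators, both kinases that make the activator of phosphofructokinase rose. PFKFB3, the form with high kinase activity, was at 116, 119.9 and 97.7 TPM in siCTR and 169, 172 and 149.7 TPM in siCEP20 libraries. PFKFB4 (chromosome 3 of hg38 from 48517684 to 48562015, minus strand) was at 24.5, 31.4 and 30.8 TPM against 43.3, 43.9 and 44.1 TPM. Neither overlapped between groups, and the siCEP20 values of PFKFB4 were nearly equal to each other. The log2 fold change was 0.55 for PFKFB3 (adjusted p = 0.00195) and 0.59 for PFKFB4 (SE 0.098, adjusted p = 0.00202, limma), and only PFKFB4 was called. PFKFB4 lost the call without siCTR 1 (log2 fold change 0.48) and PFKFB3 gained it without siCTR 1, siCTR 2 or siCEP20 3 (up to 0.61 without siCEP20 3). With median-of-ratios scaling both still rose (0.40 and 0.45) and neither was called. The summed PFKFB level was 1.46 times as high in siCEP20 libraries, and the share of PFKFB4 in it was 19.8% ± 3.12 in siCTR and 20.5% ± 1.39 in siCEP20 libraries (SD, n = 3 each). PFKFB4 overlaps UCN2 on the same strand, whose level was 64.1% of its own, so reads can be shared.

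PDK1, a kinase that restrains entry of pyruvate into mitochondria and a HIF target, was at 4.96, 6.41 and 5.53 TPM against 6.65, 5.28 and 6.0 TPM. The groups overlapped, with a log2 fold change of 0.07 (adjusted p = 0.664, limma) that turned to -0.05 with median-of-ratios scaling, -0.10 with quantile normalization and -0.23 with the length and GC correction. Of its relatives outside the 40, PDK4 rose from 7.85 ± 0.766 to 12.8 ± 0.784 TPM (SD, n = 3 each, log2 fold change 0.65, adjusted p = 0.00149, called) and PDK2 rose by 0.49 (adjusted p = 0.00376). Of the 13 genes of pyruvate entry into mitochondria, 6 rose and none fell (30.2% and 13.2% of all tested genes), with a median log2 fold change of 0.30. Those that rose were the pyruvate dehydrogenase genes PDHA1, PDHX and DLAT, the kinases PDK2 and PDK4 and the phosphatase PDP1, so that activating and restraining genes were both among them. With median-of-ratios scaling 4 rose and 2 fell (20.1% and 21.6% of all tested genes).

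Of the 3 pentose phosphate genes, 2 rose and 1 fell. PGD, the second NADPH-making dehydrogenase of the oxidative branch, was at 1543, 1594 and 1647 TPM in siCTR and 1844, 1956 and 1926 TPM in siCEP20 libraries (log2 fold change 0.26, adjusted p = 0.00296, limma). TKT, the transketolase of the nonoxidative branch, was at 1517, 1513 and 1549 TPM against 1773, 1902 and 1852 TPM (0.27, adjusted p = 0.00195). TALDO1, the transaldolase beside it, was at 474, 503 and 499 TPM against 452, 431 and 451 TPM (-0.15, adjusted p = 0.0409). None of the 3 overlapped between groups. PGD and TKT were 0.13 and 0.14 above the median gene, and their adjusted p was 0.0673 and 0.0684 with median-of-ratios scaling. TALDO1 still fell with that scaling (-0.30), but its adjusted p exceeded 0.05 without any of 5 of the libraries (all but siCTR 1), up to 0.127 (log2 fold change -0.12) without siCEP20 2.

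Of 12 tested genes of the pentose phosphate pathway and of cytosolic NADPH outside the 40, 4 rose and 4 fell (30.2% and 13.2% of all tested genes). Those with the smallest adjusted p were IDH1, a cytosolic NADPH-making dehydrogenase, at 224, 263 and 227 TPM against 132, 146 and 130.2 TPM (log2 fold change -0.80, adjusted p = 0.000187), and PRPS2, which makes the activated ribose for nucleotides, at 23.6, 28.4 and 26.2 TPM against 12.8, 14.5 and 12.3 TPM (-0.93, adjusted p = 0.000255). Both were called lower and neither overlapped between groups. Genes that make NADPH or ribose thus went in both directions.

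The adjusted p alone divided the HIF and hypoxia genes into those that rose and those that did not. EGLN3, which did not pass, had a larger log2 fold change (0.40) than ADM (0.37), which did. Of the 13, 6 rose (46.2%, against 30.2% of all tested genes), none fell and 7 did neither. Their median log2 fold change was 0.37, or 0.23 above the median of all tested genes, and leaving out 1 library at a time moved it between 0.30 and 0.46 (0.46 without siCTR 2). With median-of-ratios scaling 5 rose and 1, P4HA2, fell, beside 20.1% and 21.6% of all tested genes.

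HIF1A, the oxygen-labile alpha subunit itself (chromosome 14 of hg38 from 61695513 to 61748259, plus strand), was at 300.1, 306 and 368 TPM in siCTR and 449, 473 and 452 TPM in siCEP20 libraries. Every siCEP20 value was above every siCTR value, with a log2 fold change of 0.50 (SE 0.080, adjusted p = 0.00167, limma). HIF1A was not called, except without siCTR 3 (0.59). Its protein, which oxygen controls, was not measured in these libraries.

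NDRG1, a stress-response gene induced by hypoxia, on chromosome 8, had the largest log2 fold change of the 40. It was at 149, 185 and 146 TPM in siCTR libraries and at 319, 259.6 and 276 TPM in siCEP20 libraries. The groups were far apart, with a log2 fold change of 0.83 (SE 0.11, adjusted p = 0.000667, limma), and NDRG1 was also called with median-of-ratios scaling (0.68).

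The carbonic anhydrases CA9 and CA12, membrane enzymes that regulate pH outside the cell, were both called higher. CA9, a widely used marker of hypoxia (chromosome 9 of hg38 from 35673928 to 35681159, plus strand), was low, at 6.80, 10.3 and 5.91 TPM against 13.4, 13.0 and 13.3 TPM. The siCTR values were scattered, with siCTR 2 nearest to the siCEP20 values, and the siCEP20 values were nearly equal. The log2 difference was 0.75 (SE 0.17, adjusted p = 0.00857, limma), and it ran from 0.60 to 0.96 with 1 library left out. CA9 overlaps ARHGEF39 on the opposite strand, at 97.2% of its level. CA12 (chromosome 15 of hg38 from 63321378 to 63381846, minus strand) was far more abundant than CA9, at 233, 270.1 and 265 TPM against 397, 426 and 407 TPM. Its groups were far apart, with a log2 fold change of 0.68 (SE 0.067, adjusted p = 0.000194). With median-of-ratios scaling CA9 was still called (0.61) and CA12 rose without passing the fold change threshold (0.53).

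VEGFA, the growth factor of blood vessels (chromosome 6 of hg38 from 43770184 to 43786487, plus strand), was at 120.4, 112 and 134 TPM against 174, 192 and 236 TPM. No siCEP20 value reached down to the siCTR values, although siCEP20 3 was well above the other two. Its log2 fold change of 0.70 (SE 0.11, adjusted p = 0.00185, limma) was 0.58 without siCEP20 3, which ended the call. VEGFA also rose without being called with median-of-ratios scaling (0.55) and with the length and GC correction (0.53). ADM, a vasodilator peptide, rose without being called, from 85.2, 100.2 and 80.7 to 119, 124 and 101 TPM. The groups of ADM were barely apart, with a log2 fold change of 0.37 (adjusted p = 0.0199), and its adjusted p exceeded 0.05 without siCTR 1, siCTR 3, siCEP20 1 or siCEP20 2, up to 0.0705 (log2 fold change 0.31) without siCEP20 2.

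The other 7 HIF and hypoxia genes neither rose nor fell. EGLN3, a prolyl hydroxylase that is itself induced by HIF, was at 7.84, 11.9 and 7.89 TPM against 12.2, 13.0 and 11.6 TPM, and siCTR 2 overlapped the siCEP20 values (log2 fold change 0.40, adjusted p = 0.0635, limma). Reads of EGLN3 may be shared with SPTSSA, which overlaps it on the same strand at 826% of its level. BNIP3 and BNIP3L, mitophagy receptors, were at 60.9 ± 4.52 and 65.3 ± 3.65 TPM and at 66.4 ± 4.01 and 69.0 ± 1.57 TPM (siCTR and siCEP20, SD, n = 3 each). In both, the means differed by less than the SD of the siCTR samples. HILPDA, a lipid droplet protein, was at 82.8 ± 11 and 83.7 ± 12.1 TPM. ANKRD37, an ankyrin repeat gene of low level, was at 2.61 ± 0.181 and 2.82 ± 0.331 TPM. The collagen prolyl hydroxylase subunits P4HA1 and P4HA2 were at 45.1 ± 3.58 and 46.2 ± 2.81 TPM and at 63.7 ± 3.07 and 60.5 ± 1.69 TPM. In all 7 the groups overlapped, and the log2 fold changes of the 6 without EGLN3 ran from -0.07 to 0.10. Of these 6, 5 changed sign with median-of-ratios scaling (BNIP3, BNIP3L, HILPDA, ANKRD37 and P4HA1).

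**Figure D4:**
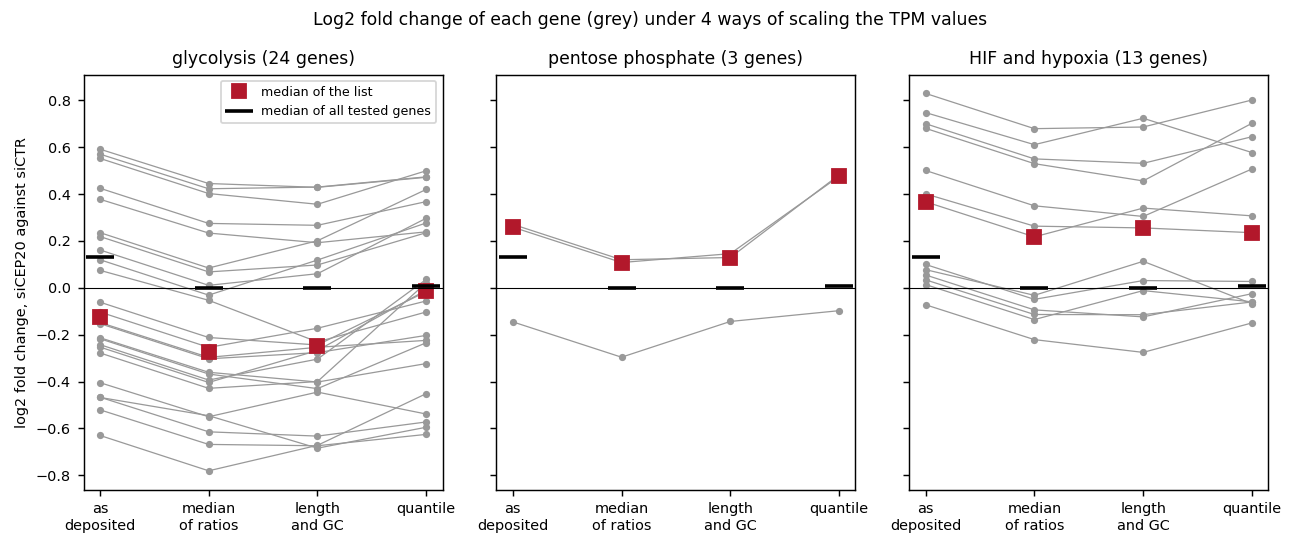
Log2 fold change (y axis, siCEP20 against siCTR) of each of the 40 genes (grey lines) with TPM as deposited, scaled by the median of ratios, corrected for transcript length and GC content, or quantile normalized, in 3 panels; red squares are medians of the list and black bars medians of all tested genes. The glycolysis median was -0.13 as deposited, -0.28 with the median of ratios, -0.25 with the correction and -0.013 with quantile normalization, and the hypoxia median stayed above that of all genes under each scaling.

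Genes upstream of the targets moved in both directions. Of 13 tested genes of oxygen sensing outside the 40, 3 rose and 3 fell (30.2% and 13.2% of all tested genes). EPAS1, the second HIF alpha subunit, was at 224, 244 and 260.3 TPM in siCTR and 423, 444 and 435 TPM in siCEP20 libraries, without overlap (log2 fold change 0.84, adjusted p = 6.82e-05, limma, called higher). The sum of HIF1A and EPAS1 was 1.57 times as high in siCEP20 libraries, and HIF1A made up 57.1% ± 1.47 of it in siCTR and 51.3% ± 0.358 in siCEP20 libraries (SD, n = 3 each). ARNT, the beta subunit, rose by 0.47 (adjusted p = 0.00292), and SIAH2, a ubiquitin ligase that acts on prolyl hydroxylases, rose from 19.3 ± 1.49 to 36.8 ± 0.550 TPM.

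The 3 that fell were partners in the ubiquitin ligase of VHL, which marks HIF alpha for degradation. A link between their levels and those of the hypoxia genes was not tested. ELOB was at 258, 257 and 265 TPM against 166, 174 and 168 TPM (log2 fold change -0.62, adjusted p = 8.01e-05, called lower). RBX1 fell by 0.68 (adjusted p = 0.000189, called lower) and ELOC by 0.37 (adjusted p = 0.00113) on the log2 scale. None of these 3 overlapped between groups. VHL itself was at 53.0 ± 2.37 and 51.4 ± 4.30 TPM (adjusted p = 0.662). CUL2, also a part of this ligase, overlapped between groups (log2 fold change -0.19, adjusted p = 0.176, limma). The oxygen sensors EGLN1 and HIF1AN also overlapped, with log2 fold changes of 0.15 and -0.08. With median-of-ratios scaling 3 of the oxygen-sensing genes rose and 6 fell (20.1% and 21.6% of all tested genes). VHL (-0.19), CUL2 (-0.34) and HIF1AN (-0.22) were then among those that fell. ELOB overlaps SRRM2 on the opposite strand, at 106% of its level.

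Among 30 tested further hypoxia genes outside the 40, 12 rose, 1 fell and 17 did neither (30.2% of all tested genes rose and 13.2% fell), and 5 were called higher (11.2% of all tested genes). Their median log2 fold change was 0.14, beside 0.13 for all tested genes. With median-of-ratios scaling 8 of the 30 rose and 3 fell (20.1% and 21.6% of all tested genes). GYS1, muscle-type glycogen synthase, was at 23.5, 27.4 and 21.8 TPM against 45.6, 48.0 and 50.9 TPM (log2 fold change 0.97, adjusted p = 0.000187, limma). BHLHE40, a transcriptional repressor of the clock and of hypoxia, was at 184, 199 and 207 TPM against 322, 346 and 347 TPM (0.78, adjusted p = 7.7e-05). Neither overlapped between groups. ERO1A, an oxidase of protein folding, and LOX, which cross-links collagen, were also called higher, with log2 fold changes of 0.84 and 0.67. LOX was near the filter, at 1.04, 1.55 and 1.02 TPM against 2.59, 2.54 and 2.36 TPM. It was not called with median-of-ratios scaling (0.58) or with the length and GC correction (0.45). GBE1, the glycogen branching enzyme, fell, and DDIT4, an inhibitor of growth signaling induced by hypoxia, was at 415, 499 and 379.7 TPM against 359, 377 and 351 TPM (adjusted p = 0.0678).

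**Figure D5:**
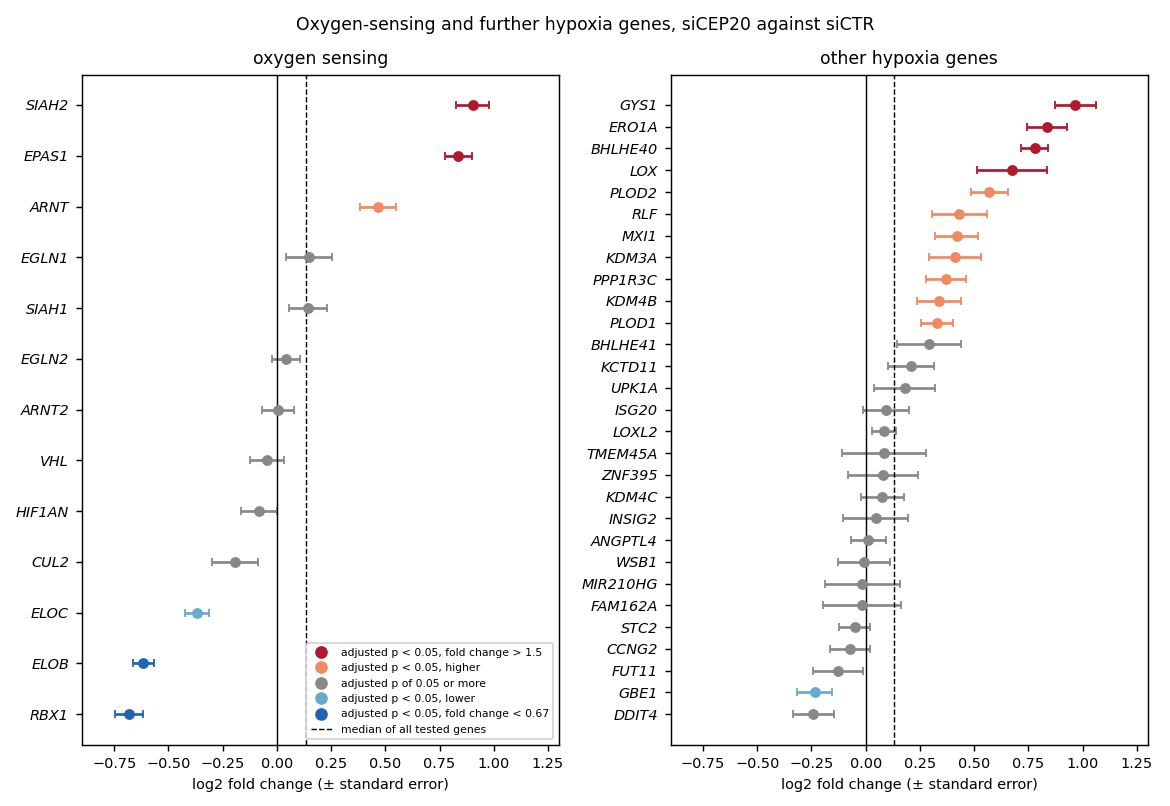
Log2 fold change (x axis, ± standard error, 3 libraries a group) of 13 oxygen-sensing genes and of further hypoxia genes outside the 40; colors give the test and the dashed line the median of all tested genes. EPAS1, SIAH2 and GYS1 stand at the upper end and the ligase partners ELOC, ELOB and RBX1 at the lower end, while most hypoxia genes lie around the dashed line.

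Few further genes of transport and of glycolysis outside the 40 passed the test, where 30.2% of all tested genes rose and 13.2% fell. Of 6 tested transport genes, BSG, the chaperone of the lactate transporters, rose from 606 ± 7.66 to 706 ± 34.1 TPM (0.22, adjusted p = 0.00882, limma), or 0.07 with median-of-ratios scaling, and SLC2A8, an intracellular glucose transporter, fell by 0.35 on the log2 scale (adjusted p = 0.0285). Of 12 tested genes of glycolysis and gluconeogenesis, 2 fell (16.7%, against 13.2% of all tested genes) and none rose. ENO3, the muscle enolase, was called lower (83.1 ± 2.99 and 54.4 ± 5.29 TPM, log2 fold change -0.61, adjusted p = 0.000738), but it overlaps the far more abundant PFN1 on the opposite strand. PGM1, which links glycogen to glycolysis, fell by 0.34 (adjusted p = 0.0029). The other 10 did neither, HKDC1 among them.

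The 16 genes that rose and the 9 that fell differed in transcript length, with medians of 3010.5 and 1781 nucleotides, and less in GC content, with medians of 55.5% and 53.6%. The 15 genes that did neither had medians of 2706 nucleotides and 47.1%. Across all 14778 tested genes, which share the 6 libraries and are not independent replicates, length and log2 fold change had a Spearman correlation of 0.25. Across the 40 genes the correlation of log2 fold change was 0.17 with length and 0.26 with GC content. After the correction for length and GC content, 13 of the 16 still rose (all but SLC2A3, PFKP and PKM) and all 9 still fell. Pseudogenes are a further source of shared reads for this group of genes, since 17 of the 40 have 157 pseudogene rows in the table. The largest summed pseudogene level was 4.54% of its parent, for TPI1. Of the 40, 18 overlap another expressed gene, 9 of them on the same strand.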

How the data were processed

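Per the labels, reads were trimmed with fastp 0.20.1, aligned to hg38 with HISAT2 2.1.0 and quantified with StringTie 2.0, and the authors deposited the TPM of each Ensembl gene in a single table. The annotation release and the use of strand in quantification are not given in the sources used here. TPM holds no read counts, so depth is unknown and precision rests on 3 samples a group.

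Genes were named with GENCODE 44, which matched 60370 of 60624 identifiers. Genes were tested where their mean reached 1 TPM (14778 genes). The group difference of log2(TPM + 1) was fitted in limma (version 3.58.1, R version 4.3.3; functions lmFit and eBayes, the latter with a trend) with no covariate, p-values were adjusted by Benjamini-Hochberg over all tested genes, and this scale understates the fold changes of low genes. Ratios of related genes were compared by a two-sided exact permutation test over samples. To correct for length and GC content, a loess fit (span 0.5) was subtracted from each library. Tested on simulated data for siCEP20 against siCTR (14595 genes), limma called 84.5% of 200 changed genes and 6 unchanged ones. That share holds only for the sizes of change and the noise that were simulated. Sensitivity for changes as small as those reported above was not tested.

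Members, lists and tests were chosen with earlier results of these data known. Values in every sample were given for called genes, for the 3 genes with the smallest adjusted p and the most abundant gene in each of 5 lists (transport, enzymes, regulators, pentose phosphate, HIF and hypoxia), for the 2 with the smallest adjusted p in each further list, and for CEP20. Other genes were named after their values were seen. Promoter windows were those of RefSeq. The alternatives were other pseudocounts, filters, scalings and thresholds, eBayes without a trend, a replicate block and each library left out. Some single genes of the further lists are not reported here.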

Additional observations from a re-analysis of the deposited data

How the results depend on the processing

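The counts of called genes moved most with the scale between libraries and with the fold change threshold. Of the 40 genes, 5 were called higher and 1 lower as deposited. These became 2 and 3 with median-of-ratios scaling, 3 and 2 with quantile normalization, 2 and 4 with the length and GC correction, 16 and 9 without a fold change threshold and 0 and 0 with a fold change of 2 required, where the limma p-values of the 25 genes at an adjusted p under 0.05 were the same and none reached that fold. Among all tested genes, 1659 were called higher and 682 lower as deposited, 894 and 1103 with median-of-ratios scaling, 923 and 1016 with quantile normalization, 896 and 883 with the length and GC correction, 4457 and 1944 without the threshold and 261 and 147 with a fold change of 2. With each library left out in turn, 5 to 7 of the 40 were called higher and 1 lower, and among all tested genes 1381 to 1905 higher and 613 to 706 lower. The median log2 fold change of the glycolysis genes was -0.13 as deposited, -0.28 with median-of-ratios scaling, -0.013 with quantile normalization and -0.25 with the length and GC correction. That of the pentose phosphate genes was 0.11 with median-of-ratios scaling, 0.48 with quantile normalization and 0.13 with the length and GC correction, and that of the HIF and hypoxia genes 0.22, 0.24 and 0.26 under the same 3. Leaving out 1 library moved the medians between -0.17 and -0.03 (glycolysis), 0.24 and 0.28 (pentose phosphate) and 0.30 and 0.46 (HIF and hypoxia). GAPDH turned to -0.031 with median-of-ratios scaling, and PDK1 to -0.053 with it, -0.10 with quantile normalization and -0.23 with the length and GC correction. Without a filter on TPM, CA9 missed the threshold (log2 fold change 0.75, adjusted p = 0.0502). The log2 ratios whose direction changed when a library was left out were HK2 to HK1 (-0.10 to 0.11), PFKFB4 to PFKFB3 (-0.11 to 0.18), CA12 to CA9 (-0.23 to 0.11) and BNIP3L to BNIP3 (-0.072 to 0.0087). The cause was not tested. Of 270 alternative values for the 18 genes shown by sample, 239 kept their direction and stayed called or not called, 11 became called, 15 were no longer called and 5 changed sign. Of the 239, 28 changed their side of an adjusted p of 0.05, among SLC2A3, SLC16A1, TALDO1, TKT, PGD and GAPDH.

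The replicate numbers did not pair the samples: the correlations of same-numbered deviations were 0.157, -0.0614 and -0.0623, and only replicate 1 correlated best with its own number. With the replicate number as a block, the 40 genes again gave 5 called higher and 1 lower, 17 genes rose and 9 fell, EGLN3 and SLC16A1 were gained and TALDO1 was lost. With the replicate block and the length and GC correction together, 2 were called higher and 3 lower, all tested genes gave 879 called higher and 879 lower, and the medians were -0.25 (glycolysis), 0.13 (pentose phosphate) and 0.26 (HIF and hypoxia), with PDK1 at -0.23. Precision rests on 3 libraries a group of unknown depth.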
